A study of Mus musculus with 2 samples.

Results

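The genes described here are 51 mouse genes of the extracellular matrix and of the fibroblasts that lay it down. They were chosen by name, and the reads of a gene are the sum over every transcript model carrying its symbol. Reads were found for 50 of them, among 15410 annotated genes with at least 1 read in the series, and Col8a1, a short-chain collagen, had none. The data are long-read RNA sequencing of heart tissue from male mice of the hybrid strain B6CASTF1/J at 18 to 20 months of age. There is 1 group with 2 libraries and no control or treated arm. Each library was made from 2 µg of total RNA. The labels call them biological replicates but give both the same donor identifier, so the spread between them may be technical. Replicate 1 held 688861 reads on mouse models and replicate 2 held 1003999.

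The extracellular matrix of the heart surrounds cardiomyocytes and vessels with fibrillar collagens, basement membranes, elastic fibres and proteoglycans. Cardiac fibroblasts make most of the fibrillar collagen, whose chains need a dedicated chaperone, hydroxylases and crosslinking enzymes, while metalloproteinases and their tissue inhibitors, the TIMPs, turn the matrix over. Endothelial and mural cells add much of the type IV collagen and laminin of the basement membrane. Such transcripts are often long and built from many short exons.

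That exon structure can be read in Col3a1, the chain of type III collagen, which carried most of the fibrillar collagen reads. Its transcript Col3a1-201 has 24 coding exons of exactly 54 bases. All 24 hold 18 codons, of which 6 at even spacing code for glycine, the repeat that lets 3 chains wind into a helix. Exons 6, 7 and 8, on the plus strand of chr1 in mm10 (chr1:45325360-45325413, chr1:45325805-45325858 and chr1:45326571-45326624), are shown with glycine codons in capitals.
Col3a1 exon 6: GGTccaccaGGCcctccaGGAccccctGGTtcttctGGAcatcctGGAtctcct
Col3a1 exon 7: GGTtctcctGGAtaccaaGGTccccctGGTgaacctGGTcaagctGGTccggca
Col3a1 exon 8: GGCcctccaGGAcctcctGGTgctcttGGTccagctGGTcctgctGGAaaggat

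The other fibrillar collagen genes share this plan. Exons of 54 coding bases numbered 21 in Col1a1, 24 in Col1a2, 29 in Col5a1 and 24 in Col5a2. The network-forming Col4a1 had 2 and Col4a2 had 1. Among the inner coding exons, the length was a multiple of 9 bases in 87.8% for Col3a1 and 87.8% for Col1a1, against 40.0% for Col4a1 and 20.4% over the members that are not collagens.

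The chains of type IV collagen, Col4a1 and Col4a2, lie head to head on chr8 and are read in opposite directions. The reference starts of both genes overlap by 22 bases, so each start lies inside the other transcript. The 300 bases around the Col4a2 start, chr8:11312555-11312854 on the plus strand, are given from RefSeq (GRCm38.p6) because the reads of these 2 genes are compared further on. Capitals mark the bases between both starts.
Col4a2 start region: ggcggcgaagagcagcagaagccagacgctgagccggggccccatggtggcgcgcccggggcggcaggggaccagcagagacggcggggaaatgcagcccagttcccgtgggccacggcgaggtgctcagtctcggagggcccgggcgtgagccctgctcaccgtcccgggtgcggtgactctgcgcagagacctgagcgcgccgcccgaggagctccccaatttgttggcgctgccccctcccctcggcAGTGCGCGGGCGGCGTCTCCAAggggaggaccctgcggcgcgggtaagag

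The window of Col4a2 was 73.7% G or C and that of Col4a1 74.0%, against a median of 52.7% over all 32851 RefSeq windows of 250 bases before to 50 bases after a start. RefSeq windows were matched for 38 members, with 46 windows, and the unmatched members were Eln, Col1a1, Ccn2, Mgp, Col14a1, Fn1, Lox, Lum, Lamc1, Sparcl1, Mmp2, Dcn and Col5a2. Short motifs were searched for on both strands, with overlaps between them allowed. GGGCGG, the GC box, was in 54.3% of the member windows and 35.7% of all windows. CCAAT was in 30.4% and 37.4%, TATAAA, the TATA box, in 13.0% and 13.6%, GGAATG, the letters bound by TEAD factors, in 15.2% and 14.7%, and TGACTCA, the AP-1 site, in 2.17% and 5.202%. These are counts of letters and were not tested.

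Further sequences mark the isoforms that the reads separate. Fbln1, a fibulin that joins elastic fibres and basement membranes, has a pair of coding variants that share exon 14 (chr15:85244183-85244306) and then end differently. Fbln1-201 goes on to 3 exons of its own, the first at chr15:85263259-85263401, and Fbln1-202 to a single one at chr15:85251445-85251885. The 24 bases on each side of the junction are shown, with the variant-specific exon in capitals.
Fbln1-201 junction: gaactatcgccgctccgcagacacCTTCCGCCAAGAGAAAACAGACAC
Fbln1-202 junction: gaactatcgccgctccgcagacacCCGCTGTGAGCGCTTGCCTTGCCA

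Lamb2, the laminin beta-2 chain, had a new spliced model in both libraries. Its first exon, in the 5′ untranslated region, ended 5 bases earlier than that of Lamb2-201 (chr9:108479857-108479974), at base 108479969, and was then joined to the same second exon at the same place. Capitals in the first sequence mark the bases left out in the second. The same junction is annotated in Lamb2-207.
Lamb2-201 junction: agtacccacacgGTCGGgatggagtgggc
Lamb2 new model junction: agtacccacacggatggagtgggc

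The tissue label was checked against its defining markers. All 8 cardiomyocyte markers had reads, and together they made up 35049 reads per 1000000 mouse reads (CPM) in replicate 1 and 37008 in replicate 2. The 51 matrix and fibroblast genes summed to 2489 reads, or 3613 CPM, in replicate 1 and to 2931 reads, or 2919 CPM, in replicate 2, a mean of 3266 ± 491 CPM (SD, n = 2). A long read was counted as 1 molecule whatever its length, so levels are per read, and transcript lengths are given where they bear on a value. Whether long and short transcripts were recovered alike was not tested. In tissue of mixed cells, fewer cells of a type and less RNA per cell cannot be told apart.

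By role, the largest summed level was that of collagen maturation and matrix turnover at 755 ± 188 CPM (SD, n = 2). Serpinh1 alone gave 464 CPM of that mean, so the rank of the role rests on this gene. Matricellular and adhesive glycoproteins followed at 681 ± 72.2, basement membrane genes at 612 ± 50.03 and small leucine-rich proteoglycans at 595 ± 99.0, and the ranges of these 4 sums over the libraries overlapped. Elastic fibre and TGF-beta storage genes summed to 324 ± 19.4 CPM and fibrillar collagens to 224 ± 71.5. The other collagens gave 47.3 ± 4.94 and the 3 fibroblast identity genes 27.6 ± 14.4. Without Serpinh1 and Dcn, the 2 with the most reads, the members summed to 2616 CPM in replicate 1 and 2227 in replicate 2.

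**Figure D1:**
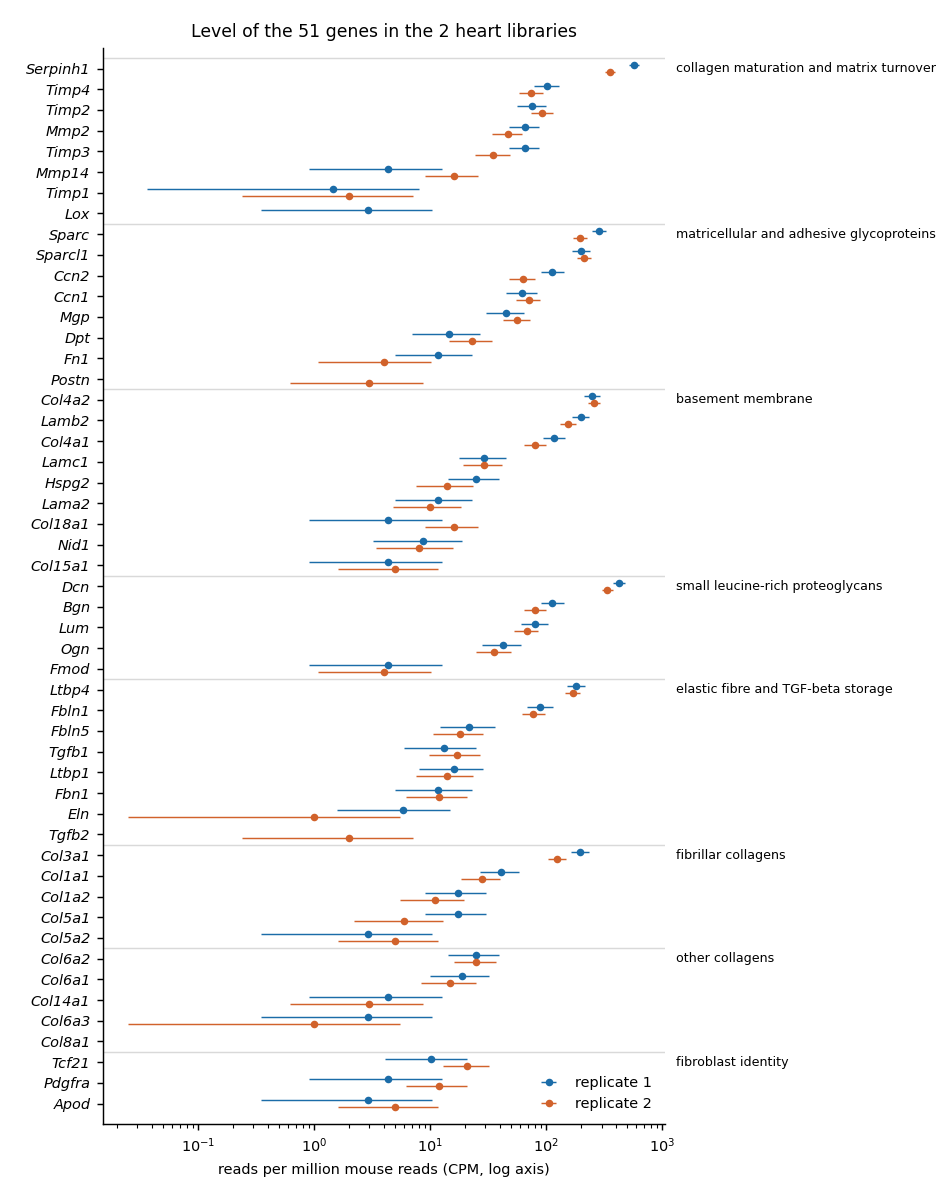
Level of each of the 51 genes in replicate 1 (blue) and replicate 2 (orange), in CPM on a log axis, grouped by role. Bars are exact 95% Clopper-Pearson intervals for counting error only, a library with 0 reads has no point, and Serpinh1 lies at 572 and 356 CPM while Col8a1 has no point in either library.

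The libraries were compared gene by gene with an exact two-sided binomial test of the reads against the libraries' share of mouse reads. A gene entered it once the libraries together gave 10 reads, which 39 members did among 8836 genes. Values were adjusted over all of these by the Benjamini-Hochberg method, and called below 0.05. It compares 2 libraries and not conditions, treats reads as independent and holds counting error only. The libraries differed by more than counting error, with a chi-square per gene of 2.57 over all genes tested and 3.92 over the members. Counting error alone would give about 1, so the p-values are too small and the intervals too narrow for that spread. Serpinh1, Sparc, Col3a1 and Ccn2 were lower in replicate 2, and no member was called higher. These 4 are 10.3% of the members tested, beside 3.36% called among all genes tested, of which 2.00% were lower and 1.36% higher. At an unadjusted p under 0.05 there were 12 members, 10 lower and 2 higher, or 30.8% of those tested against 12.01% of all genes. With replicate 2 divided by replicate 1, the log2 ratio had a median of -0.23 in the 39 members and of -0.06 in all genes tested, and 26 members lay below 0 and 13 above.

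**Figure D2:**
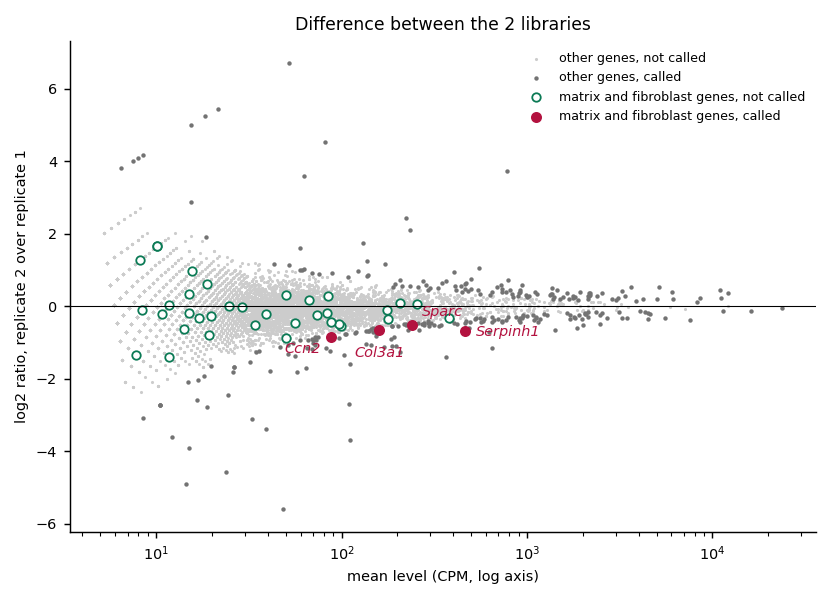
Log2 ratio of replicate 2 over replicate 1 (pseudocount 1 CPM) against the mean level in CPM on a log axis, with 1 point per gene tested. The 39 members tested are circled in green, with the 4 called in red, which all lie below 0 between -0.53 and -0.84; Col18a1 and Mmp14, with the same reads, share 1 circle.

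Among genes that process collagen, Serpinh1 had the most reads of any member. It encodes HSP47, the endoplasmic reticulum chaperone that binds folding procollagen. Replicate 1 held 394 of its reads (572 CPM) and replicate 2 held 357 (356 CPM). The log2 ratio was -0.68 with a 95% interval of -0.90 to -0.48 and an adjusted p of 1.32e-08 in the exact binomial test. Lox, which crosslinks collagen and elastin, had 2 reads, both from replicate 1. A companion list of 24 other genes for collagen synthesis and crosslinking held 18 tested, of which 3 were lower in replicate 2 and none higher. P4hb, the beta subunit of prolyl 4-hydroxylase and also a general disulfide isomerase, went from 318 to 225 CPM (adjusted p = 0.0120, exact binomial test). P4ha1, a catalytic subunit of the same enzyme, went from 87.1 to 44.8 CPM (adjusted p = 0.0244, exact binomial test) and Plod1, a lysyl hydroxylase, from 92.9 to 47.8 (adjusted p = 0.0184, exact binomial test). P4ha2 had 134 and 120 CPM and Sec23a, which helps export procollagen, 62.4 and 80.7, and neither was called.

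The fibrillar collagens were led by Col3a1, with 135 reads (196 CPM) and 124 reads (124 CPM). Its log2 ratio was -0.66 with an interval of -1.03 to -0.30, and the adjusted p was 0.00987 in the exact binomial test. Col1a1 and Col1a2 encode the chains of type I collagen, which joins them 2 to 1. Col1a1 had 28 reads in each library (40.6 and 27.9 CPM) and Col1a2 had 12 and 11 (17.4 and 10.96 CPM). The read ratio of Col1a1 to Col1a2 was 2.33 (95% interval 1.15 to 5.04) in replicate 1 and 2.55 (1.23 to 5.67) in replicate 2. On known transcripts alone there were 21 Col1a1 reads and 0 of Col1a2 in replicate 1, and 15 and 0 in replicate 2, for lower interval bounds of 5.21 and 3.59. That of Col1a1 to Col3a1 was 0.207 (0.133 to 0.313) and 0.226 (0.144 to 0.342), so type III chain reads exceeded those of the type I alpha-1 chain in both libraries. Col5a1, which helps to start fibrils, had 12 and 6 reads, with a log2 ratio of -1.40 that did not pass the adjustment (adjusted p = 0.333, exact binomial test). Its partner Col5a2 had 2 and 5.

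The basement membrane genes gave no call in 8 tested. Col4a2 had 171 and 260 reads (248 and 259 CPM) at a log2 ratio of 0.06 with an interval of -0.22 to 0.35. Col4a1 had 81 reads in each (118 and 80.7 CPM), a ratio of -0.54 that did not pass the adjustment (adjusted p = 0.266, exact binomial test). Lamb2 had 137 and 156 reads (199 and 155 CPM), Lamc1, the gamma chain it pairs with, 20 and 29, and the read ratio of the 2 was 6.85 (4.27 to 11.6) and 5.38 (3.60 to 8.30). On known transcripts alone that ratio was 3.71 (2.03 to 7.26) and 5.69 (3.13 to 11.2), so the order of the libraries turned. Lama2, the alpha chain of the muscle laminin, had 8 and 10 reads on a transcript of 9614 bases. Hspg2, the very large proteoglycan perlecan, had 17 and 14, and the linker protein gene Nid1 6 and 8. Col18a1, the source of endostatin, had 3 and 16 reads (4.36 and 15.9 CPM; adjusted p = 0.346, exact binomial test), and Col15a1 3 and 5. Of 16 companion laminin and basement membrane genes, 10 were tested and none was called, with Smoc2 at 100.2 and 98.6 CPM, Dag1 at 61.0 and 38.8 and Lamb1 at 47.9 and 35.9.

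Small leucine-rich proteoglycans bind collagen fibrils and growth factors. Dcn, decorin, had 293 reads (425 CPM) and 338 (337 CPM), a log2 ratio of -0.34 that stayed above the threshold (adjusted p = 0.0863, exact binomial test). Bgn, biglycan, had 78 and 81 reads (113 and 80.7 CPM). Lum, lumican, had 55 and 68 (79.8 and 67.7 CPM), Ogn, osteoglycin, 29 and 36 (42.1 and 35.9 CPM), and Fmod, fibromodulin, 3 and 4. All 4 tested lay below 0 and none was called. Decorin reads outnumbered lumican reads by 5.33 (3.98 to 7.24) in replicate 1 and 4.97 (3.82 to 6.55) in replicate 2, so the ratio was close in both. In the companion list of 28 other proteoglycans and glycoproteins none of 14 tested was called. Podn, a relative of decorin, had 84.2 and 136 CPM at an adjusted p of 0.0501 in the exact binomial test, Igfbp7 had 173 and 145, and Ecm1 52.3 and 50.8.

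Among matricellular proteins, which act on cells more than they bear load, Sparc and Ccn2 were called and their close relatives were not. Sparc, a collagen-binding calcium-binding protein, had 196 reads (285 CPM) and 198 (197 CPM), a log2 ratio of -0.53 with an interval of -0.82 to -0.24 (adjusted p = 0.0130, exact binomial test). Sparcl1, its paralogue, had 138 and 214 reads (200.3 and 213 CPM) at 0.09, with an interval of -0.23 to 0.41. Ccn2, the connective tissue growth factor, had 78 reads (113 CPM) and 63 (62.7 CPM), at -0.84 with an interval of -1.35 to -0.35 (adjusted p = 0.0204, exact binomial test). Ccn1, also an immediate target of YAP, had 43 and 71 reads (62.4 and 70.7 CPM). The read ratio of Ccn1 to Ccn2 was therefore 0.551 (0.371 to 0.810) in replicate 1 and 1.13 (0.791 to 1.61) in replicate 2, with intervals that overlapped narrowly and no test of the difference. Mgp, an inhibitor of calcification, had 31 and 56 reads, and Dpt, dermatopontin, 10 and 23. Fn1, fibronectin, had 8 and 4 reads. Postn, periostin, which activated fibroblasts make, had 0 and 3.

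Elastic fibre genes and those that store TGF-beta gave no call in 6 tested, with log2 ratios of -0.27 to 0.35. Ltbp4, which holds latent TGF-beta on elastic fibres, had 125 and 170 reads (181 and 169 CPM). Ltbp1, with the same function, had 11 and 14. Fbln1 had 61 and 78 reads (88.6 and 77.7 CPM), Fbln5, needed to assemble elastic fibres, 15 and 18, and Fbn1, the fibrillin of microfibrils, 8 and 12. Eln, elastin itself, had 4 and 1 read. Tgfb1 had 9 and 17 reads and Tgfb2 0 and 2. None of 9 tested in 13 companion elastic fibre genes was called, with Fbln2 at 49.4 and 55.8 CPM, Emilin2 at 45.002 and 22.9 and Efemp1 at 23.2 and 18.9. None of 20 tested in 24 genes of TGF-beta and CCN signalling was called, a list that also holds Pdgfra. Its highest were Eng with 161 and 145 CPM, Smad4 with 65.3 and 61.8 and Wwtr1 with 42.1 and 65.7.

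The proteases and their inhibitors gave no call besides Serpinh1, an inhibitor by family only. Timp4, an inhibitor known for its expression in heart, had 70 and 75 reads (102 and 74.7 CPM), Timp2 52 and 93 (75.5 and 92.6 CPM), and Timp1, which rises in injury, 1 and 2. Timp3, which stays bound to the matrix, had 45 and 35 reads (65.3 and 34.9 CPM), a log2 ratio of -0.89 that did not pass the adjustment (adjusted p = 0.124, exact binomial test). Timp2 reads relative to those of Timp3 stood at 1.16 (0.760 to 1.76) and 2.66 (1.78 to 4.04), with intervals that just failed to overlap, and the difference was not tested. Mmp2, gelatinase A, had 45 and 47 reads. Mmp14, the membrane enzyme that activates it, had 3 and 16, the same reads as Col18a1. In 23 companion protease genes 8 were tested and none was called, with Mmp15 at 95.8 and 62.7 CPM, Serpine2 at 74.0 and 45.8 and Adamts1 at 39.2 and 26.9. In 21 matrix receptors 13 were tested and none was called, with Itgb1 at 228 and 234 CPM, Itga7 at 120 and 133 and Itgb5 at 84.2 and 56.8.

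The remaining collagens and the fibroblast identity genes had few reads. Type VI collagen forms beaded filaments next to basement membranes, and its chain genes Col6a1, Col6a2 and Col6a3 had 13 and 15, 17 and 25, and 2 and 1 reads. Col14a1, which sits on fibril surfaces, had 3 in each library. Of 24 companion collagens only Col5a3 was tested, at 16.0 and 6.97 CPM, with Col4a5 at 4.36 and 1.99 and Col4a4 at 0 and 1.99, and none was called. Col8a1, with 0 reads, could have been present at up to 4.36 CPM in replicate 1 and 2.99 in replicate 2, the level of 3 reads. Tcf21, a transcription factor of cardiac fibroblasts, had 7 and 21 reads, Pdgfra, their surface receptor, 3 and 12, and Apod 2 and 5. All 3 were higher in CPM in replicate 2, and neither of the 2 tested was called (adjusted p = 0.592 for Tcf21 and 0.590 for Pdgfra, exact binomial test).

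Other cell type markers were read the same way. In a list of 21 fibroblast markers that are not members, 15 were tested and 2 were lower in replicate 2, and the list summed to 4313 and 3413 CPM. Most of that was Gsn, an actin-severing protein made by many cells, at 3613 and 2884 CPM (adjusted p = 6.55e-14, exact binomial test). Htra1 had 221 and 152 CPM (adjusted p = 0.0411, exact binomial test) and Htra3 92.9 and 107.6. Adipocyte markers summed to 344 and 165 CPM, with Car3 (192 and 28.9 CPM) and Cfd (42.1 and 6.97 CPM) lower in replicate 2 and Cidea at 97.3 and 126, not called. Endothelial markers summed to 1561 and 1862 CPM, and Fabp4 and Cd36 made up most of both sums and of the rise. Fabp4 was called higher, at 386 and 541 CPM, while Cd36, at 595 and 704, and Eng were not called. Among cardiomyocyte markers Pln (9371 and 12673 CPM) and Myl2 (3943 and 4494) were higher and Myh6 (16996 and 15406) and Actc1 (3310 and 2976) lower. No marker was called in the lists for mural cells (438 and 478 CPM), macrophages (348 and 317), mesothelial cells (59.5 and 60.8), valve cells (17.4 and 28.9) or activated fibroblasts (110 and 119). In these lists Rgs5 had 225 and 208 CPM, Lyz2 131 and 112, Upk3b 16.0 and 21.9, Cytl1 5.81 and 18.9 and Acta2 66.8 and 65.7. The part of the cell makeup of each sample in the lower Serpinh1, Sparc, Col3a1 and Ccn2 was not tested.

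A long read can be matched to the intron chain of an annotated transcript. The authors' models are classed as known, incomplete splice match (a chain that is part of a known one), new with known splice sites, new with a new splice site, or genomic. Of the member reads, 66.8% in replicate 1 and 64.3% in replicate 2 were on known transcripts, against 74.8% and 72.4% over all annotated genes. Incomplete matches made up 23.9% and 24.2% of member reads, against 12.6% and 14.9%. Col4a2 alone held 388 of the 1305 incomplete-match reads of the members in both libraries together. Only 37 of its 431 reads were known, so the shares of all members and of the basement membrane role rest in part on this gene. The roles differed: 89.7% of proteoglycan reads were known in both libraries together, 76.0% for fibroblast identity, 75.7% for maturation and turnover, 72.4% for matricellular genes, 66.4% for fibrillar collagens, 65.1% for elastic fibre genes, 25.2% for basement membrane genes and 17.7% for the other collagens. Col1a2, Col6a1, Col6a3, Lama2 and Hspg2 had reads but none on a known transcript.

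**Figure D3:**
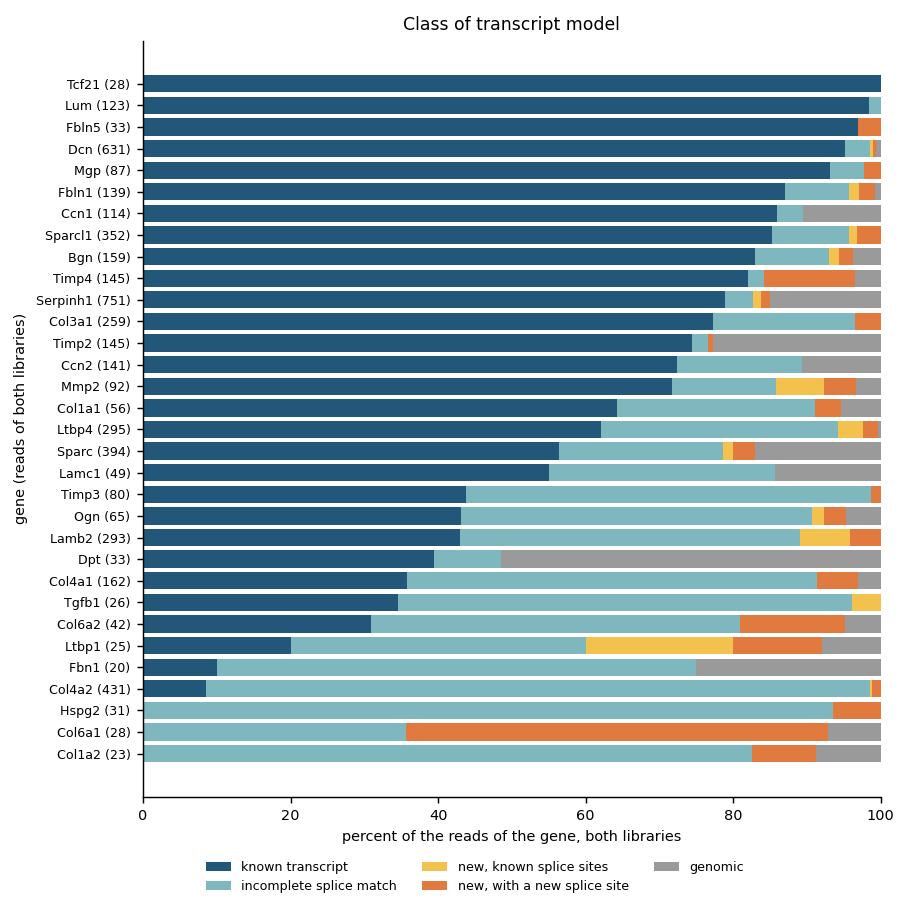
Share of reads in each class of transcript model, in percent of both libraries' reads, for the 32 members with at least 20 reads, with the read number in parentheses. Known transcripts fill 98.4% of the bar of Lum and 8.58% of that of Col4a2, and none of those of Col1a2, Col6a1 and Hspg2.

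Known shares were lower in longer transcripts, in the members as in all genes. Over 31 members with at least 20 reads and a spliced longest transcript, Spearman's rho between length and known share was -0.48, and over 6505 genes it was -0.44; genes of a library share its read lengths, and this is a description. Set against all genes in the same length class, 15 of the 31 lay at or above the class median. Fibrillar collagens of like length had unlike shares. Col3a1, at 5564 bases, had 77.2% of its reads on known transcripts, Col1a1, at 5930, had 64.3%, and Col1a2, at 5348, had 0 of 23. Fbln5, with 97.0% known at 5829 bases, lay high in its length class, where the median was 53.3%. Dpt, with 39.4% known at 1724 bases, lay low in its own, where the median was 85.5%.

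**Figure D4:**
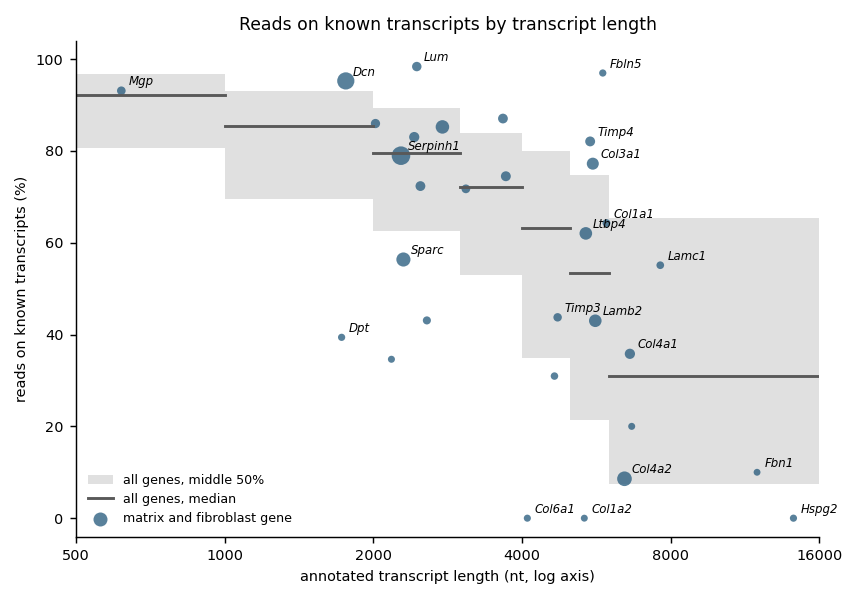
Reads on known transcripts, in percent, against annotated transcript length in bases on a log axis, for 31 members (circles, area grows with reads). Grey boxes and lines give the middle 50% and the median of all genes per length class, with Fbln5, Lum and Timp4 among those above the boxes and Col1a2, Col6a1 and Dpt among those below.

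Reads were also asked whether they held the first intron of an annotated coding transcript with a complete start. Col3a1 reads did so in 109 of 135 cases (80.7%) in replicate 1 and 98 of 124 (79.0%) in replicate 2, with a median of 51 exons per read on a transcript of 51 exons. Col1a2 reads never did, in 23 reads, which had a median of 26 of 52 exons and at most 45. Col4a1 did so in 29.6% and 48.1% of reads and Col4a2 in 11.7% and 7.31%. At the high end, Lum did so in 98.2% and 98.5%, Dcn in 96.6% and 95.6% and Fbln5 in all 33 reads. Sparc, at only 2300 bases, did so in 38.8% and 34.3%.

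New single-exon models accounted for 777 member reads. For 762 of them (98.1%) the deposited model lay inside the last exon of a coding transcript of the gene. Some of these models are very short, with 1 base listed for Sparc and for Dpt and 20 bases for Serpinh1. Where such a model lies does not show how far its reads reached. Col4a2 held 39.6% of the 777 reads. Of its reads, 116 in replicate 1 (67.8%, exact interval 60.3 to 74.8) and 192 in replicate 2 (73.8%, 68.1 to 79.1) were single-exon models in the last exon, chr8:11448059-11449287, which holds 255 coding bases and 974 untranslated ones. Its partner Col4a1 had 6 and 3 such reads. The order of the 2 chains therefore depended on which reads were counted. With all models the read ratio of Col4a1 to Col4a2 was 0.474 (0.359 to 0.621) and 0.312 (0.240 to 0.401). On known transcripts alone it was 1.20 (0.635 to 2.29), from 24 and 20 reads, and 2.00 (1.09 to 3.82), from 34 and 17.

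**Figure D5:**
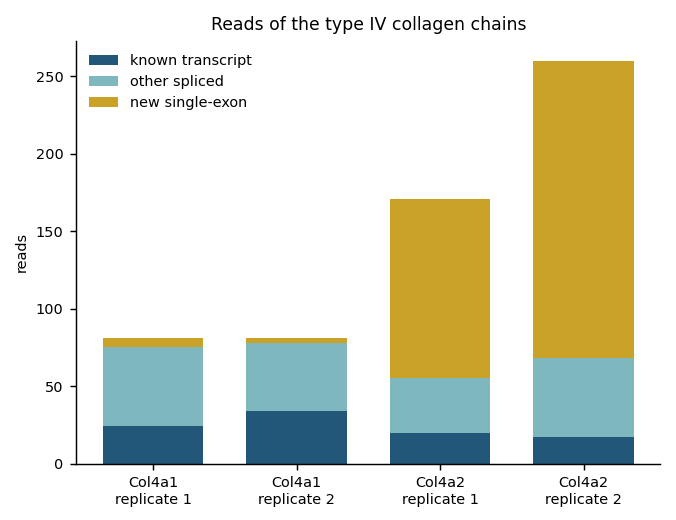
Reads of Col4a1 and Col4a2 in each library, stacked by known transcripts, other spliced models and new single-exon models. The single-exon part is 116 and 192 reads for Col4a2 and 6 and 3 for Col4a1, while the known part is 20 and 17 against 24 and 34.

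The same kind of read was common in a few other members. Timp3 had 24 and 16 (53.3% and 45.7% of its reads), in a last exon of 3802 bases of which 195 are coding. Hspg2 had 8 and 10, Dpt 5 and 12, Timp2 11 and 24, Sparc 33 and 34, and Serpinh1 42 and 71 (10.7% and 19.9%). On known transcripts alone the ratio of Timp2 to Timp3 was 2.22 (1.24 to 4.12) and 4.00 (2.32 to 7.26). Some of these models were given a different class in each library: those of Ccn2 were 13 incomplete matches in replicate 1 and 15 genomic in replicate 2, and those of Bgn 6 genomic in replicate 1 and 8 incomplete in replicate 2. They were therefore counted as 1 model per gene.

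Isoform use was compared by Fisher's exact test on the top model of each gene, for genes that reached 20 reads in replicate 1 and again in replicate 2 and had more than 1 model, 3938 in all and 22 of them members. None of the 22 was called, beside 0.813% of all genes, and 2 members had an unadjusted p under 0.05, as did 294 (7.47%) of all genes. Serpinh1-201 made up 80.5% of Serpinh1 reads in replicate 1 (76.2 to 84.3) and 72.3% in replicate 2 (67.3 to 76.9), with an adjusted p of 0.359 in Fisher's exact test. Fbln1-202, the variant with the single last exon shown above, made up 37.7% (25.6 to 51.04) and 60.3% (48.5 to 71.2), with an adjusted p of 0.374 in Fisher's exact test. It had 23 and 47 reads, and Fbln1-201 had 28 and 23, so the order of the variants turned between the libraries without passing the adjustment. The share of reads on known transcripts was tested in 22 members of 4087 genes. None was called, beside 0.734% of all genes, and 268 (6.56%) of all genes had an unadjusted p under 0.05. Serpinh1 was the 1 member that did, at 82.7% and 74.8% known (adjusted p = 0.401, Fisher's exact test).

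Other members divided their reads in like ways in both libraries. Dcn-201 and Dcn-202, which are both 1758 bases in 8 exons and differ in the first exon, took 65.5% and 29.7% of decorin reads in replicate 1 and 69.5% and 25.4% in replicate 2. Sparc-201, of 10 exons, took 27.6% and 27.8%, and Sparc-205, a retained-intron transcript, took 16.8% and 17.7%. Ogn-201, of 7 exons, had 12 and 16 reads, and a 6-exon chain lacking its first exon had 12 and 15. Ltbp4-205, of 30 exons, took 56.0% and 60.6% of Ltbp4 reads, although Ltbp4-201 is the longest transcript annotated. Timp4-201 took 56 of 70 and 62 of 75 reads, Sparcl1-201 84.1% and 86.0% of its reads, and Mgp-201 93.5% and 92.9%. All 28 reads of Tcf21 were on Tcf21-201.

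The 35 members with new spliced models had 146 of them, with 231 reads. Of these, 126 rested on 1 read in all and 16 were found in both libraries. Only 2 had at least 5 reads in each. The Lamb2 model shown above had 9 and 8 reads, beside 52 and 74 on Lamb2-201. The other was a model of Col6a1 (chr10:76708792-76726168, minus strand), with 9 and 6 of the gene's 13 and 15 reads and 32 exons where Col6a1-201 has 35. It shares 29 introns with Col6a1-201. In place of 5 annotated introns it has 2, the first from 76712402 to 76713180 and the second from 76721043 to 76721402. The shortest exon of Col6a1-201, 9 bases, lies within the first, and the annotated intron there ends at 76713184. The second spans the short exons between the annotated introns 76721006-76721087, 76721109-76721262 and 76721284-76721402. Whether the model is a separate isoform was not tested.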

How the data were processed

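Long-read RNA libraries of 1 group (heart, n = 2) were analysed, with replicate numbers from the labels. The authors deposited whole-number read counts per transcript model, not normalized, with the TALON class of each model. Per the labels the assembly is mm10. The known models match GENCODE M21, while for the aligner and the read filters the labels and headers used here name nothing. The per-gene count is the sum of the deposited models, and CPM is per 1000000 mouse reads, spike-ins excluded. Where models were left out as an alternative, CPM was taken over the reads kept. For log2 ratios 1 CPM was added to each value. New spliced models were matched between libraries by intron chain, and the new single-exon models of a gene were pooled.

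Counts were compared with the exact binomial test and shares with Fisher's exact test (scipy 1.17.1, Python 3.11.15, pandas 2.3.3). Each test was adjusted over all annotated genes that entered it, with a threshold of 0.05. The tests were run on simulated libraries that held counting error only, so their behaviour under further spread between libraries was not tested. Intervals are exact at 95% and cover counting error only. Between the libraries the chi-square per gene was 2.57 over all genes tested and 3.92 over the members, where counting error alone would give about 1. The p-values and intervals leave out this further spread. Whether the libraries come from separate animals or preparations was not tested. Near-identical copies were searched with blastn 2.17.0, and the only copy with a read was Gm2399, of Nid1, with 1. TMM factors (edgeR 4.0.16) and DESeq2 1.42.0 size factors in R 4.3.3, other read minimums, known transcripts only, genomic models left out and thinning were tried. The members, roles and companion lists were chosen with earlier results of these data known. All 51 members are named, with up to 3 genes of each companion list by mean CPM and every listed gene called. One further marker list is not reported here. Promoter windows are from RefSeq, and protein sequences were not used here.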

Additional observations from a re-analysis of the deposited data

Results flagged for a closer look

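New models on the strand opposite a member are outside the gene counts above. The series has no control samples, so they are listed where a library held more than 3 reads, the number that a count of 0 allows. Opposite Lama2 there were 5 reads in replicate 1 and 7 in replicate 2, the only member past that limit in both libraries. They were scattered over 4 models in replicate 1 and 7 in replicate 2, along a very long gene (chr10:26980036-27619758). Whether any model was the same in both libraries was not tested. Opposite Sparc there were 6 reads in 4 models, opposite Col4a1 5 in 3, opposite Apod 5 in 1 and opposite Lamc1 4 in 4. All of these were in replicate 2, with at most 3 reads in replicate 1. For Lama2 these reads stand beside 8 and 10 on the gene itself, and for Apod beside 5 in replicate 2, while Sparc had 198 reads in replicate 2.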

How the results depend on the processing

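The number of members called was 4 under TMM factors, DESeq2 size factors, read minimums of 1 and 20, and genomic models left out, and these were the same 4 genes. On known transcripts only it was 3, without Sparc (log2 -0.53, adjusted p = 0.130, exact binomial test). With the deeper library thinned it was 4, with Dcn (-0.43, adjusted p = 0.0327, exact binomial test) in place of Sparc (-0.41, adjusted p = 0.188, exact binomial test). Over these alternatives Serpinh1 lay between -0.83 and -0.64, Col3a1 between -0.68 and -0.61 and Ccn2 between -1.22 and -0.79, with the largest adjusted p 0.0400, for Ccn2. On known transcripts only, 4 members that were not called moved by more than their counting interval: Col4a1 to 0.02, Col4a2 to -0.70, Col6a2 to 1.74 and Lamb2 to 0.03. No member reversed a called direction. Where models were left out, CPM was taken over the reads kept in each library and not over all mouse reads. The log2 ratios on known transcripts and without genomic models are on that scale too. On it the summed level was 3026 CPM on known transcripts and 3262 without genomic models. The sum on known transcripts is therefore not a part of the main one. Of the member reads, 66.8% in replicate 1 and 64.3% in replicate 2 were known. The summed level was 3261 CPM with TMM factors, and each replicate alone gave 2919 and 3613. No member was called for its top transcript share under any alternative. For the known share, counting known and incomplete models together gave 2 members, Ccn2 and Serpinh1; this split divides single-exon reads by class, which for Ccn2 differed between the libraries. Leaving out a replicate ends the comparison, and no paired analysis was possible because there is 1 group. One read is worth 1.45 CPM in replicate 1 and 0.996 in replicate 2. The 11 members with 1 to 9 reads, compared only under the read minimum of 1, gave no call. With so few reads almost none of them could have been called, so no conclusion is drawn.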
